A study of Danio rerio with 2 samples.

Results

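Somatotropes, the growth hormone cells of the pituitary, were examined in droplet single-cell RNA-seq libraries from zebrafish. Their members were selected on measured counts, as barcodes with at least 200 detected genes, at most 20% mitochondrial UMIs and at least 2000 UMIs, of which gh1 held at least 5%. The other pituitary hormones had to stay low, with lhb and fshb together under 1%, prl under 2% and pomca under 1% of the UMIs. A UMI (unique molecular identifier) marks 1 captured RNA molecule, so that amplified copies are counted once. This rule gave 364 somatotropes among the 3074 barcodes that met the gene, mitochondrial and UMI limits (called deep below), and among 8991 barcodes in all. The cck1-/-;cck2-/- library (KO) held 141 somatotropes, which was 11.1% of its 1270 deep barcodes (Clopper-Pearson interval 9.43 to 13.0%). The WT library held 223, which was 12.4% of its 1804 deep barcodes (10.9 to 14.0%), and these intervals overlapped.

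The pituitaries came from male zebrafish of the AB strain at 6 months of age, with 30 fish taken per genotype and pooled. The KO fish came from a cross of cck1 and cck2 single mutants made with CRISPR/Cas9, so both cholecystokinin genes were mutated in every tissue, and the WT fish carried neither mutation. Each genotype gave 1 library, so the spread between fish or libraries is unknown, the genotypes could not be tested against each other and p-values are left out. Every interval is a 95% interval and covers only the error of counting.

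Growth hormone is made in the anterior pituitary by somatotropes, whose lineage depends on the transcription factor POU1F1 (also called Pit-1), which lactotropes and thyrotropes share. In vertebrates, growth hormone-releasing hormone and PACAP raise its release and somatostatin lowers it. Growth hormone acts largely through insulin-like growth factors, whose availability is set by binding proteins and by the pappalysin proteases that cleave them. The hormone enters the endoplasmic reticulum through the Sec61 channel, is packed into granules and leaves the cell by calcium-triggered exocytosis.

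The KO file held 15910570 UMIs in 3755 barcodes and the WT file 22358017 UMIs in 5236 barcodes. Somatotropes had a median of 14539 UMIs in KO (2181 to 44493) and of 11460 UMIs in WT (2010 to 59892). Mitochondrial RNA took a median of 1.61% of their UMIs in KO and 1.68% in WT, and ribosomal protein genes took 7.53% in KO and 10.0% in WT. The libraries shared 11 barcode sequences, none of them on a somatotrope. The automatic threshold of a doublet caller (Scrublet) marked 0 barcodes in either library and so had not worked. Doublets were therefore limited only by the bounds on the other hormones, which left out 1 KO and 2 WT barcodes with gh1 of at least 5%. Gh1 was also found in cells of the other classes, at medians of 0.017 to 0.042% of the UMIs in KO and 0.079 to 0.104% in WT.

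Because gh1 takes a large and variable share of these cells, every other gene is given in CPM, which here means UMIs per 1000000 of the UMIs that remain without gh1, prl, pomca, lhb and fshb, summed over the cells. Deep barcodes with gh1 under 5% were classed by the same hormones as gonadotropes (13 KO and 71 WT cells), lactotropes (32 KO and 62 WT cells) and POMC cells (44 KO and 114 WT cells). These 3 classes summed are called other hormone cells below. Their makeup differed between the libraries, so a difference between KO and WT in the summed classes can also reflect that makeup. Its part in such differences was not tested. Deep barcodes past none of the hormone limits numbered 1037 in KO and 1329 in WT and are called cells of no hormone class. No limit was set on thyroid-stimulating hormone or somatolactin, so thyrotropes and somatolactin cells could fall there and were not compared as a class.

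The 4 genes proposed with gh1 as markers were all far higher in somatotropes than in the other hormone cells of the same library. They were chosen with earlier results of these data known, so their levels are a description and not a check of the name. Pou1f1 (ENSDARG00000058924), the lineage factor, had 616 CPM in KO and 559 in WT somatotropes, against 50.7 in other KO and 36.1 in other WT hormone cells. Among those cells lactotropes carried most of it, with 159 CPM in KO and 135 in WT. S100t (ENSDARG00000055589), a calcium-binding protein of the S100 family, had 1824 CPM in KO and 1032 in WT somatotropes, against 7.25 in other KO and 55.3 in other WT hormone cells. Of the other WT hormone cells gonadotropes held most s100t, at 180.1 CPM.

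Kcnd2 (ENSDARG00000032799) encodes an A-type voltage-gated potassium channel and had 1546 CPM in KO and 1929.7 in WT somatotropes, against 60.2 in other KO and 177 in other WT hormone cells. Gpr85 (ENSDARG00000068701), an orphan receptor, had 732 CPM in KO and 552 in WT somatotropes, against 31.2 in other KO and 30.1 in other WT hormone cells. The shares of cells with a UMI also depend on depth, so each cell was thinned to 2000 UMIs. Kcnd2 was then expected in 68.5% of KO and 69.1% of WT somatotropes, against 7.89% of other KO hormone cells and 16.6% of other WT hormone cells. S100t was expected in 56.1% of KO and 31.3% of WT somatotropes, against 0.945% of other KO hormone cells and 2.88% of other WT hormone cells. Unthinned, kcnd2 was seen in 88.7% of KO and 88.3% of WT somatotropes, and s100t in 72.3% of KO and 47.5% of WT somatotropes.

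**Figure D1:**
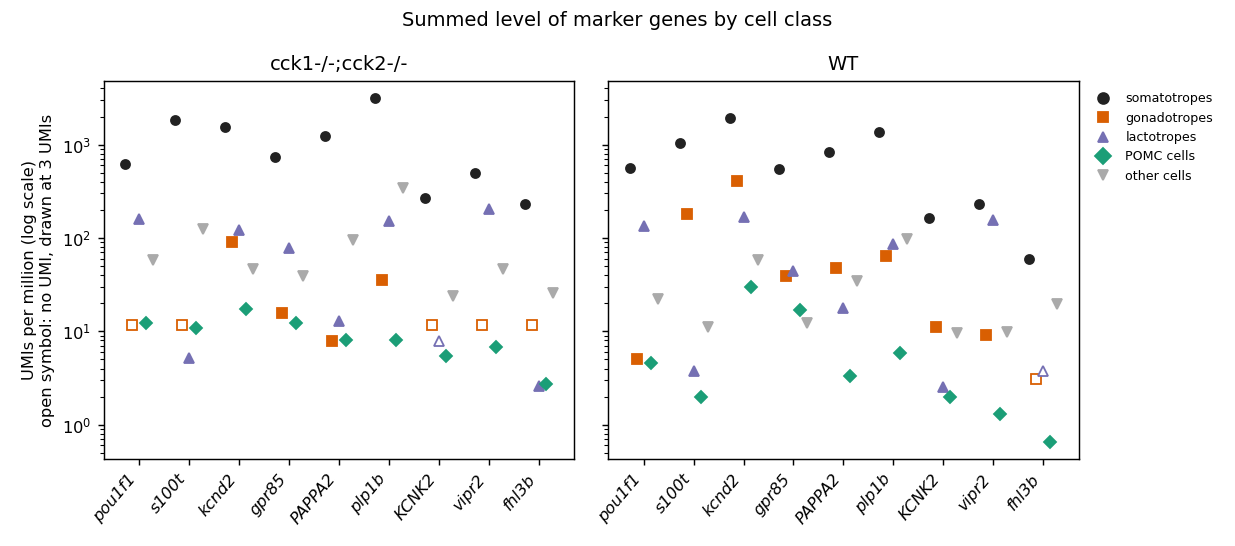
Summed levels of 9 genes in CPM (log scale) by cell class, with the KO library on the left and the WT library on the right; open symbols mark classes with no UMI, drawn at the level of 3 UMIs. Pou1f1, for example, stands at 616 in KO somatotropes, above 159 in KO lactotropes.

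The share of gh1 varied widely from cell to cell, and the WT library had an upper range that was nearly empty in the KO library. Gh1 chose the cells, so these values are a description. In KO somatotropes gh1 took 5.42 to 42.6% of the UMIs, with a median of 18.0% and quartiles of 12.0 and 22.7%. In WT somatotropes it took 5.20 to 71.2%, with a median of 23.0% and quartiles of 15.2 and 36.9%. At or above 40% there were 1 of 141 KO cells and 48 of 223 WT cells. Few cells lay near the lower limit of the rule, with 3 KO and 4 WT members at 5% to under 6%, and 3 KO and 3 WT deep barcodes at 4% to under 5%. A further 127 KO and 226 WT barcodes had gh1 of at least 5% but fewer than 2000 UMIs, and were left out.

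**Figure D2:**
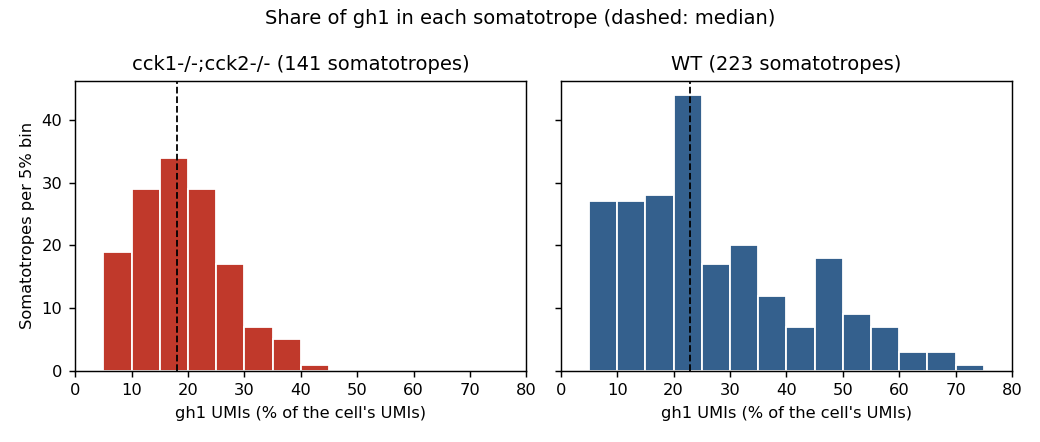
Number of somatotropes (y axis) by the percent of the cell's UMIs from gh1 in bins of 5% (x axis), with the 141 KO cells on the left and the 223 WT cells on the right; dashed lines are medians. KO cells end at 42.6%, while 48 WT cells lie at 40% or above.

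The genes that set somatotropes apart from the other hormone cells were sought within each library. Of 4686 genes with enough UMIs (at least 100 over the cells compared), 331 (7.06%) were at least 2-fold higher in somatotropes in both libraries and 541 (11.5%) were at least 2-fold lower in both. Of the IGF system genes, only PAPPA2 was among the genes with the highest ratios in both libraries. PAPPA2, a protease that in humans cleaves IGF-binding proteins, had 1238 CPM in KO and 835 in WT somatotropes, against 9.42 in other KO and 20.04 in other WT hormone cells. The log2 ratio was 7.04 (6.26 to 7.95) in KO and 5.38 (5.03 to 5.76) in WT, and PAPPA2 was seen in 138 of 141 KO and 188 of 223 WT somatotropes. Pappab, a related pappalysin, had 66.9 CPM in KO and 68.6 in WT somatotropes, against 9.42 in other KO and 6.38 in other WT hormone cells. These were the 2 of 5 IGF system genes past 2-fold, and 0 of the 5 were past 2-fold lower.

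Several other leading genes are best known from other tissues. Plp1b, a proteolipid protein known from myelin, had 3146 CPM in KO and 1359 in WT somatotropes, against 53.6 in other KO and 42.2 in other WT hormone cells. Cells of no hormone class had 345 CPM of plp1b in KO and 96.9 in WT. Mbpb, a gene of myelin basic protein, had 70 UMIs in KO and 244 UMIs in WT somatotropes. Pde6ga, the inhibitory subunit of a photoreceptor phosphodiesterase, had 959 CPM in KO and 412 in WT somatotropes, against 8.70 in other KO and 16.4 in other WT hormone cells. ZBTB16, a zinc-finger transcriptional repressor, had 1173 CPM in KO and 1243 in WT somatotropes, against 16.7 in other KO and 42.8 in other WT hormone cells. These genes were found in most somatotropes, plp1b in 139 KO and 200 WT cells, pde6ga in 127 KO and 147 WT cells, and ZBTB16 in 131 KO and 187 WT cells.

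Ifnphi3, a type I interferon of fish, had 402 CPM in KO and 375 in WT somatotropes, against 0.725 in other KO and 5.77 in other WT hormone cells. It was seen in 92 KO and 113 WT somatotropes, and the cell with the most held 6.52% of its UMIs in KO and 10.9% in WT. Fabp4a, a fatty acid-binding protein, had 152 CPM in KO and 266 in WT somatotropes, against 0.725 in other KO and 8.50 in other WT hormone cells. Cells of no hormone class had 306 CPM of fabp4a in KO and 189 in WT. Fhl3b, a LIM-domain gene, had 232 CPM in KO and 59.0 in WT somatotropes, against 3 UMIs in all other KO hormone cells and 1 UMI in all other WT hormone cells. The remaining genes of the 15 with the highest ratios in both libraries were KCNK2, ZMAT4, cbln4, smoc1, si:dkey-35i13.1, si:ch211-153l6.6, si:ch211-136a13.2 and ENSDARG00000111342.

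The 10 genes with the lowest ratios in both libraries were at or near 0 in somatotropes. Nr5a1b, the counterpart of the gonadotrope factor SF-1, had 1 UMI in KO and 4 UMIs in WT somatotropes, against 225 CPM in other KO and 584 in other WT hormone cells. Gad2, which makes GABA, had 1 UMI in KO and 3 UMIs in WT somatotropes, against 619 CPM in other KO and 399 in other WT hormone cells. Nppal, a natriuretic peptide-like gene, had 2 UMIs in KO and 7 UMIs in WT somatotropes, against 657 CPM in other KO and 683 in other WT hormone cells. These 3 genes were nearly silent in both libraries. Aldh1a3, an enzyme of retinoic acid synthesis, had 8 UMIs in KO and 15 UMIs in WT somatotropes, against 993 CPM in other KO and 868 in other WT hormone cells. The other 6 of the 10 lowest genes were CGA (ENSDARG00000103345), tfa, scube1, GRID1, cabp5a and si:dkey-14d8.6. Of these GRID1 had the most UMIs, with 24 in KO and 40 in WT somatotropes.

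Of 12 receptor genes compared, gpr85 and vipr2 were at least 2-fold higher in somatotropes in both libraries, and drd4-rs, gabbr2, GABBR1 and insra were at least 2-fold lower. Gpr85 is also a marker chosen with earlier results of these data known. Over all genes 7.06% were higher and 11.5% lower. Vipr2, a receptor for VIP and PACAP, had 493 CPM in KO and 234 in WT somatotropes, against 60.2 in other KO and 40.7 in other WT hormone cells. Lactotropes had 203 CPM of vipr2 in KO and 155 in WT. Adcyap1r1a, a PACAP receptor, had 53.5 CPM in KO and 29.7 in WT somatotropes, against 3.62 in other KO and 2.73 in other WT hormone cells, with too few UMIs to enter the count.

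Of the receptors for growth hormone-releasing hormone, ghrelin and somatostatin, ghrhra, ghsra and sstr3 were barely detected at this depth. Ghrhra, a receptor for growth hormone-releasing hormone, had 9 UMIs in KO and 10 UMIs in WT somatotropes. Ghsra, a ghrelin receptor, had 4 UMIs in KO and 3 UMIs in WT, and sstr3, a somatostatin receptor, had 25 UMIs in KO and 15 UMIs in WT. Counts this low do not show that the receptors are absent.

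Among nuclear receptors and their enzymes, 3 of 21 genes were at least 2-fold higher in somatotropes in both libraries and 7 were at least 2-fold lower. The shares over all genes were 7.06% higher and 11.5% lower. Thrb, a thyroid hormone receptor, had 859 CPM in KO and 372 in WT somatotropes, against 200.1 in other KO and 176 in other WT hormone cells. Rxraa, a retinoid X receptor that pairs with thyroid hormone receptors, had 263 CPM in KO and 219 in WT somatotropes, against 25.4 in other KO and 20.6 in other WT hormone cells. Esr2a, an estrogen receptor, had 74.1 CPM in KO and 71.7 in WT somatotropes, against 14.5 in other KO and 27.3 in other WT hormone cells. The lower genes were nr3c2, thraa, esr1, nr4a2a, nr4a3, dio3b and hsd11b2.

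Among 25 transcription factors, pou1f1 and foxo1a were past 2-fold higher in both libraries and 8 were past 2-fold lower. Pou1f1 was counted although it is a marker chosen with earlier results of these data known. Here too 7.06% of all genes were higher and 11.5% lower. Foxo1a, a forkhead factor controlled by insulin and IGF signalling, had 6420.5 CPM in KO and 3956 in WT somatotropes, against 1266 in other KO and 803 in other WT hormone cells. POMC cells had 2104 CPM of foxo1a in KO and 1404 in WT. The lower genes were nr5a1b, pitx3, insm1b, creb3l2, six3a, six3b, and the POMC lineage factors TBX19 and pax7a.

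Ion channels split both ways. Of 36 channel genes, kcnd2, cacnb1, KCNK2, cacna1ab, kcnh1a, KCNJ3 and HCN4 were at least 2-fold higher in somatotropes in both libraries, and 6 were at least 2-fold lower, among them cacna1ba, kcnh7, kcnn1a and kcnd3. The count includes kcnd2, a marker chosen with earlier results of these data known. The shares over all genes were 7.06% higher and 11.5% lower. KCNK2, a background potassium channel, had 271 CPM in KO and 165 in WT somatotropes, against 2.90 in other KO and 4.86 in other WT hormone cells. Cacna1ab, a pore subunit of voltage-gated calcium channels, had 206 CPM in KO and 163 in WT somatotropes, against 7.97 in other KO and 13.4 in other WT hormone cells.

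Secretory genes divided by compartment. Of 49 genes of endoplasmic reticulum entry, folding and stress, sec61g, xbp1, atf6, ssr3, kdelr2b and ero1a were at least 2-fold higher in somatotropes in both libraries and 0 were lower. Over all genes 7.06% were higher and 11.5% lower. Sec61g, a subunit of the translocation channel, had 2446 CPM in KO and 2718 in WT somatotropes, against 966 in other KO and 838 in other WT hormone cells. Xbp1, a transcription factor of the unfolded protein response, had 2199 CPM in KO and 1653 in WT somatotropes, against 665 in other KO and 549.9 in other WT hormone cells. The median log2 ratio over these 49 genes was 0.32 in both libraries, where all 4686 genes had medians of 0.07 in KO and -0.03 in WT.

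Granule genes leaned the other way. Of 18 granule and prohormone-processing genes, 0 were at least 2-fold higher in somatotropes and scg3, SCG5, furinb, chga and pcsk1 were at least 2-fold lower in both libraries. The shares over all genes were 7.06% higher and 11.5% lower. Scg3, a granin, had 2046 CPM in KO and 2411 in WT somatotropes, against 8667 in other KO and 11957 in other WT hormone cells. The median log2 ratio over the 18 genes was -0.99 in KO and -0.82 in WT. Of 32 exocytosis genes, cplx2, rab3da and rab3db were higher and snap25b, cadpsa, cadpsb, SYT7 and unc13ba were lower, beside 7.06% higher and 11.5% lower over all genes. Cplx2, a complexin of vesicle fusion, had 609 CPM in KO and 375 in WT somatotropes, against 64.5 in other KO and 71.7 in other WT hormone cells.

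Of 43 genes of cyclic AMP and calcium signalling, PDE4B (1 of 2 genes with this symbol), rasd1 and camk4 were at least 2-fold higher in somatotropes in both libraries and 7 were lower, shares close to the 7.06% and 11.5% over all genes. Of 36 immediate early and stress genes, dusp1 was higher and nr4a3, dusp2 and hspb1 were lower. Of 17 clock genes hlfa was higher and npas2 lower, and of 9 interferon and MHC genes 0 were past 2-fold in either direction, so none of these lists is read as set apart from all genes.

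The genotypes were then compared within somatotropes. Of 5206 genes that reached 100 UMIs when the libraries were added, 417 (8.01%) were at least 2-fold higher in KO and 256 (4.92%) were at least 2-fold lower, with a median log2 ratio of 0.09 over all of them. The balance depended on the scale. With CPM taken over all UMIs, gh1 included, the median log2 ratio was 0.36 and 84.2% of the genes past 2-fold were higher in KO, against 62.0% on the scale used here, and with ratios centred on their median it was 50.6%. Against other hormone cells the share of genes past 2-fold that were higher was 24.1% over all UMIs and 38.0% on the scale used here. Without the cells in which gh1 took 40% or more, 268 genes were higher in KO, of which 226 were among the 417, and 208 were lower, of which 144 were among the 256. The markers were within 2-fold between the genotypes, with log2 KO over WT ratios of 0.14 (0.02 to 0.25) for pou1f1, 0.82 (0.75 to 0.90) for s100t, -0.32 (-0.39 to -0.25) for kcnd2 and 0.41 (0.30 to 0.52) for gpr85.

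Among the 12 genes with the lowest KO over WT ratios, some were nearly silent in KO somatotropes. Si:dkey-16p21.6 had 1 UMI in KO and 158 UMIs in 55 WT somatotropes, a log2 ratio of -7.07 (-12.38 to -4.57). Cxcl11.4, a chemokine, had 0 UMIs in KO and 124 UMIs in 15 WT somatotropes, which is at least 35.1-fold lower in KO with 3 counts over the summed KO cells in place of 0. In cells of no hormone class cxcl11.4 had 0.408 CPM in KO and 70.4 in WT. Scg5, which the files list apart from SCG5, had 3.09 CPM in KO and 45.0 in WT somatotropes. In other hormone cells scg5 had 0 UMIs in KO and 233 CPM in WT, so its low KO level was not particular to somatotropes.

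Esm1, the proteoglycan endocan, had 6.17 CPM in KO and 94.0 in WT somatotropes, against 5.80 in other KO and 5.77 in other WT hormone cells. Psat1, an enzyme of serine synthesis, had 5.66 CPM in KO and 63.8 in WT somatotropes, against 23.9 in other KO and 29.5 in other WT hormone cells. Both rested mainly on WT cells rich in gh1. Without the cells at 40% gh1 or more the log2 KO over WT ratio was -1.54 in place of -3.93 for esm1, and -1.46 in place of -3.49 for psat1. The remaining low genes were si:dkey-238c7.13, si:ch211-145n14.3, col18a1a, ENSDARG00000103903, uts2r1, fstl1a and rtn4rl2b, with log2 ratios between -4.36 and -3.18. Fstl1a was at -2.26 in place of -3.29 without the cells at 40% gh1 or more. Of the 2265 WT UMIs of si:dkey-238c7.13, 4 cells held 359, 344, 295 and 287.

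The 12 genes with the highest ratios lay between 2.26 and 3.02 on the log2 scale. Snap25b, a SNARE protein of vesicle fusion, had 122 CPM in KO and 21.0 in WT somatotropes, against 311 in other KO and 176 in other WT hormone cells, and its log2 KO over WT ratio in somatotropes was 2.54 (2.09 to 3.02). PCSK6, a proprotein convertase, had 62.8 CPM in KO and 10.5 in WT somatotropes, against 9.42 in other KO and 6.68 in other WT hormone cells. TSC22D3, known in mammals as a glucocorticoid-induced gene, had 44.3 CPM in KO and 6.56 in WT somatotropes, against 21.0 in other KO and 17.0 in other WT hormone cells. These 3 were counted in more KO than WT somatotropes, with 62 KO and 30 WT cells for snap25b, 52 KO and 18 WT cells for PCSK6, and 30 KO and 12 WT cells for TSC22D3. The others were si:dkey-80g18.5, si:ch211-179l5.4, si:dkey-108k21.23, ENSDARG00000117353, GRB7, CPNE4, cpeb3, lhfpl6 and SLC35F4.

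Of 11 receptor genes, vipr2, CRHR1, gabbr1b and insra were at least 2-fold higher in KO somatotropes and 0 were lower, with a list median of 0.85. Over all genes 8.01% were higher and 4.92% lower. Vipr2 had 493 CPM in KO and 234 in WT, a log2 ratio of 1.08 (0.92 to 1.23). CRHR1, a receptor for corticotropin-releasing hormone, had 304 CPM in KO and 121 in WT somatotropes, against 282 in other KO and 253 in other WT hormone cells. Without the cells at 40% gh1 or more gabbr1b was under 2-fold, at 0.72, as was insra, at 0.98. Lepr, the leptin receptor, had 122 CPM in KO and 224 in WT somatotropes, a log2 ratio of -0.88 (-1.10 to -0.65), and this direction rested on the WT cells at 40% gh1 or more. At 5% to under 20% gh1 lepr had 107 CPM in KO and 50.1 in WT, and the WT somatotropes under 40% gh1 together had 86.6 CPM.

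Of 17 nuclear receptor genes thrb was past 2-fold, with a log2 KO over WT ratio of 1.21 (1.09 to 1.33) in somatotropes and 0.19 (-0.03 to 0.40) in other hormone cells. Of 21 transcription factors stat3, a mediator of cytokine and leptin signalling, and MYT1 (1 of 2 genes with this symbol) were past 2-fold higher. Since 8.01% of all genes were higher, neither list is read as set apart from all genes. Stat3 had 1042 CPM in KO and 469 in WT somatotropes. Without the cells at 40% gh1 or more all 3 were under 2-fold, with log2 ratios of 0.97 for thrb, 0.72 for stat3 and 0.72 for MYT1.

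Of 30 exocytosis genes SYT14, snap25b and syt11b were past 2-fold higher in KO somatotropes, where 8.01% of all genes were, and of 21 granule genes PCSK6 was higher and atp6ap1b and scg5 were lower. SYT14, a synaptotagmin, had 204 CPM in KO and 79.1 in WT somatotropes, against 42.8 in other KO and 48.9 in other WT hormone cells. Of 35 ion channel genes cacna2d2a, cacna1ha, CACNA1A, kcnq2a and scn3b were higher and 0 were lower, beside 8.01% higher and 4.92% lower over all genes. Without the cells at 40% gh1 or more, cacna1ha was still past 2-fold, at 1.63, the other 4 channel genes lay between 0.66 and 0.86, and syt11b was under 2-fold, at 0.95. Of 42 signalling genes adcy5, PDE1C, crema, atp2b1b and atp2a2a were higher and 0 were lower, again beside 8.01% of all genes, and atp2a2a was at 0.84 without the cells at 40% gh1 or more. Adcy5, an adenylyl cyclase, had 714 CPM in KO and 293 in WT somatotropes, against 345 in other KO and 238 in other WT hormone cells.

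Of 53 endoplasmic reticulum genes, hspa5, calr, ddit3 and calr3b were past 2-fold higher in KO and 0 were lower, where 8.01% of all genes were higher, and the median log2 ratio was 0.03. Without the cells at 40% gh1 or more hspa5 and ddit3 were under 2-fold, at 0.99 and 0.82. In that setting sec61b was at 0.76, ssr3 at 0.66, xbp1 at 0.67, atf6 at 0.58, sec61g at 0.19 and kdelr2b at 0.13. Ero1a was at 1.76, with 23 WT UMIs. Hspa5, the chaperone BiP, had 577 CPM in KO and 285 in WT somatotropes, against 511 in other KO and 361 in other WT hormone cells. In the IGF system igfbp2b and igfbp5b were higher in KO and igfbp1a was lower, of 7 genes, beside 8.01% higher and 4.92% lower over all genes. Igfbp5b was under 2-fold, at 0.81, without the cells at 40% gh1 or more. Igfbp1a, an IGF-binding protein, had 41.7 CPM in KO and 117 in WT somatotropes, against 55.1 in other KO and 95.3 in other WT hormone cells. PAPPA2 had a log2 KO over WT ratio of 0.57 (0.48 to 0.66).

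The immediate early and stress list had the most genes past 2-fold. Of its 34 genes 12 were higher in KO somatotropes and dusp5 and per1b were lower, beside 8.01% higher and 4.92% lower over all genes. The list had a median log2 ratio of 0.73. Hsp70l, a heat shock gene, had 8098 CPM in KO and 3695 in WT somatotropes. Fosab, a subunit of AP-1, had 2078 in KO and 818 in WT, and junba, another, had 759 in KO and 253 in WT. The list summed to 42323 CPM in KO and 25301 in WT somatotropes, and in all other deep barcodes to 43473 in KO and 28443 in WT, so the difference was not limited to somatotropes. Without the cells at 40% gh1 or more, fosab, fosb, junbb, ier2b, atf3, socs3a, hsp70l and hsp70.1 were under 2-fold. The part that dissociation had in these values was not tested.

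Clock genes went both ways, with cry3a, cry3b and rorcb of 19 genes past 2-fold higher in KO somatotropes and per3, ciarta and per1b lower. The shares over all genes were 8.01% higher and 4.92% lower. Cry3b, a cryptochrome, had 144 CPM in KO and 41.5 in WT somatotropes, against 58.7 in other KO and 48.0 in other WT hormone cells. Ciarta, a repressor of the clock, had 7.20 CPM in KO and 45.0 in WT somatotropes, against 15.9 in other KO and 79.9 in other WT hormone cells. The hour of sampling is not given in the sources used here. Of 11 interferon and MHC genes tapbp.1, ifi27.2 and irf1b were lower in KO and 0 were higher, beside the same shares over all genes. Tapbp.1 was within 2-fold, at -0.75, without the cells at 40% gh1 or more.

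The genotype ratios of somatotropes and other hormone cells were set side by side for 4563 genes, and the 8 with the widest gap were s100t, znf1096, homer3b, RASSF5, MGAT4C, psat1, si:dkey-238c7.13 and cacna1ha. S100t had a log2 KO over WT ratio of 0.82 in somatotropes and of -2.93 (-4.01 to -2.02) in other hormone cells. Gonadotropes held most of the s100t of the other WT hormone cells and numbered 71 in WT and 13 in KO. Without the hormone genes, gonadotropes gave 255389 of the 1379531 UMIs of other hormone cells in KO, and 977481 of 3293446 in WT. The part of this makeup in the s100t gap was not tested. Znf1096 had 16.5 CPM in KO and 60.8 in WT somatotropes, against 254 in other KO and 70.7 in other WT hormone cells. RASSF5, a Ras-binding protein, had 75.1 CPM in KO and 326 in WT somatotropes, against 204 in other KO and 82.6 in other WT hormone cells. Both were thus lower in KO somatotropes and higher in the other KO hormone cells. Cacna1ha, a pore subunit of T-type calcium channels, went the other way, with 183 CPM in KO and 58.1 in WT somatotropes, against 14.5 in other KO and 36.1 in other WT hormone cells. The gaps were not tested. Genes with over 20% of their UMIs in 1 somatotrope were left out, but no such limit was set for other hormone cells.

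**Figure D3:**
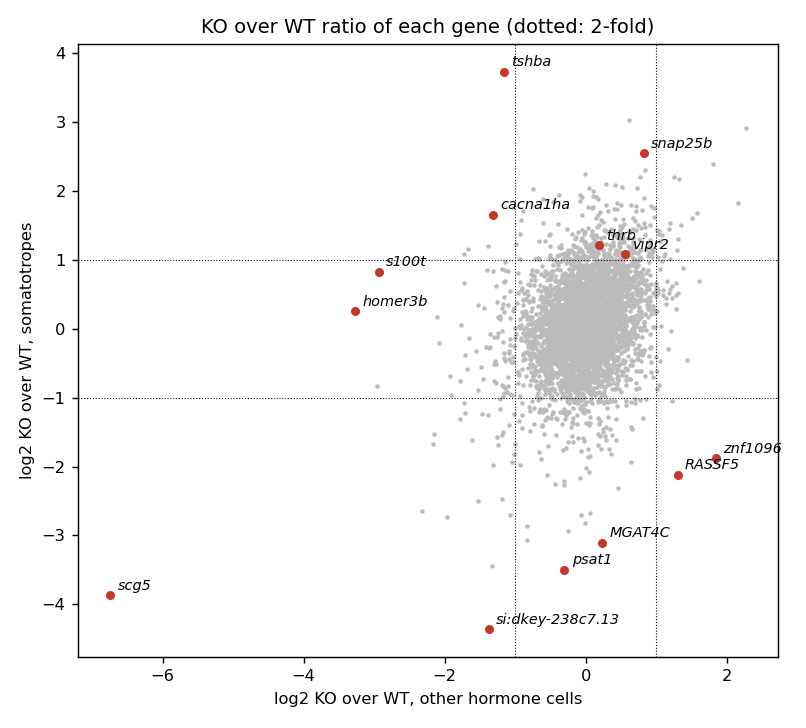
Log2 KO over WT ratio of each gene in somatotropes (y axis) against the same ratio in other hormone cells (x axis), both unitless; dotted lines mark 2-fold. Znf1096 and RASSF5 lie at the lower right, with ratios of -1.88 and -2.12 in somatotropes, and cacna1ha lies at the upper left, at 1.65.

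The spread of single genes over the somatotropes of a library was described with an index that also rises with a gene's abundance. This dispersion index divided the squared deviation of a gene's counts from those that each cell's depth gives by the value that counting error alone gives. Its median over 2744 genes was 2.74 in KO and 2.66 in WT. The 10 genes with the highest index in both libraries were hbaa1, hbba1, hsp70l, ENSDARG00000080337, wu:fj16a03, zgc:162730, malat1, ccn1, cxcl18b and s100t. Hbaa1, a globin of red blood cells, had an index of 171 in KO and 235 in WT. S100t had an index of 48.8 in KO and 80.5 in WT. Per 10000 UMIs without the hormone genes, s100t had a median of 7.18 and a highest value of 255 in KO somatotropes, against a median of 0 and a highest value of 172 in WT somatotropes.

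Some genes followed the share of gh1 from cell to cell. Spearman's rho with the percent of gh1 was computed for 523 genes over 141 KO and 223 WT cells, as a description, since the cells of a library share it and differ in depth. The rho of gh1 percent with the cell's UMIs was -0.19 in KO and 0.21 in WT. The highest genes in both libraries were sec61g (0.64 in KO, 0.67 in WT), the elongation factor gene eef1a1l1 (0.45 in KO, 0.79 in WT), sec61b (0.42 in KO, 0.60 in WT), snd1 and ssr3. Sec61g, sec61b and ssr3 belong to the machinery through which secreted proteins enter the endoplasmic reticulum. The lowest were fosl2 (-0.38 in KO, -0.49 in WT), the anti-apoptotic gene bcl2a (-0.35 in KO, -0.44 in WT), ANK3, camk1da and klf6a. Summed ribosomal protein genes had a rho of 0.14 in KO and 0.80 in WT. The share of gh1 reached 42.6% in KO and 71.2% in WT, so the rho values of the libraries cover unlike ranges.

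**Figure D4:**
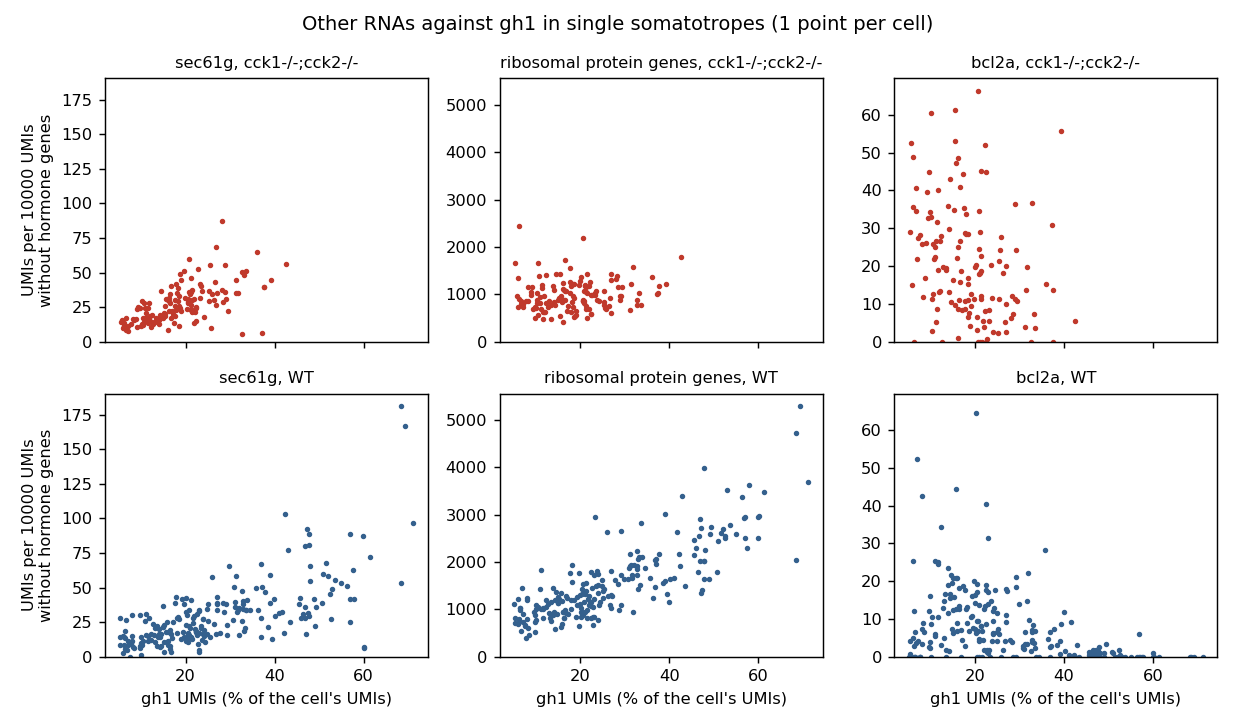
UMIs per 10000 UMIs without the hormone genes (y axes) for sec61g, the summed ribosomal protein genes and bcl2a against the percent of gh1 (x axes) in each somatotrope, with KO cells in the upper row and WT cells in the lower row. Sec61g is higher at high gh1 in both libraries, with a rho of 0.64 in KO and 0.67 in WT.

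The 48 WT cells with gh1 at 40% or more were set beside the other 175 WT somatotropes. The boundary was chosen after the values were seen, 8 WT cells lay within 2 points of it, and the cells are a range of 1 library and not a cell type. The 48 cells had a median of 20318 UMIs (2162 to 59892), against 11315 in the other 175, so summed levels weigh the deepest cells most. A median of 2367.5 genes was detected in the 48 cells and of 2368 in the others. Malat1 summed to 115443 CPM in the 48 cells and 80954 in the others. Single cells varied, with 10.7 and 34.3 malat1 UMIs per 10000 without the hormone genes in cells at 68.4 and 69.3% gh1. Another cell at 68.4% gh1 had 772, and the WT median was 808. Of 3371 genes, 245 were at least 2-fold higher in the 48 cells and 922 were at least 2-fold lower, with a median log2 ratio of -0.38. Ribosomal protein genes made up 219666 CPM in the 48 cells and 125975 in the others. Of 46 endoplasmic reticulum genes 21 were past 2-fold higher, with a median of 0.92. The immediate early and stress list made up 11038 CPM in the 48 cells and 30661 in the others.

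The genes highest in those 48 cells included enzymes of serine, threonine and proline metabolism. Psat1 had 192 CPM in the 48 cells and 15.6 in the others, tdh of threonine breakdown had 432 CPM in the 48 cells and 39.7 in the others, and aldh18a1 of proline synthesis had 209.6 CPM in the 48 cells and 34.9 in the others. Tgfbi, a secreted matrix protein, had 1469 CPM in the 48 cells and 139 in the others, and lepr had 589 CPM in the 48 cells and 86.6 in the others. In the other direction fosab had 49.6 CPM in the 48 cells and 1106 in the others, stat3 had 32.0 CPM in the 48 cells and 633 in the others, and kcnd2 had 795 CPM in the 48 cells and 2356 in the others. Pou1f1 had 821 CPM in the 48 cells and 461 in the others, but 1 of the 48 cells held 145 of their 513 pou1f1 UMIs. It was seen in 28 of the 48 cells and in 126 of the other 175.

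**Figure D5:**
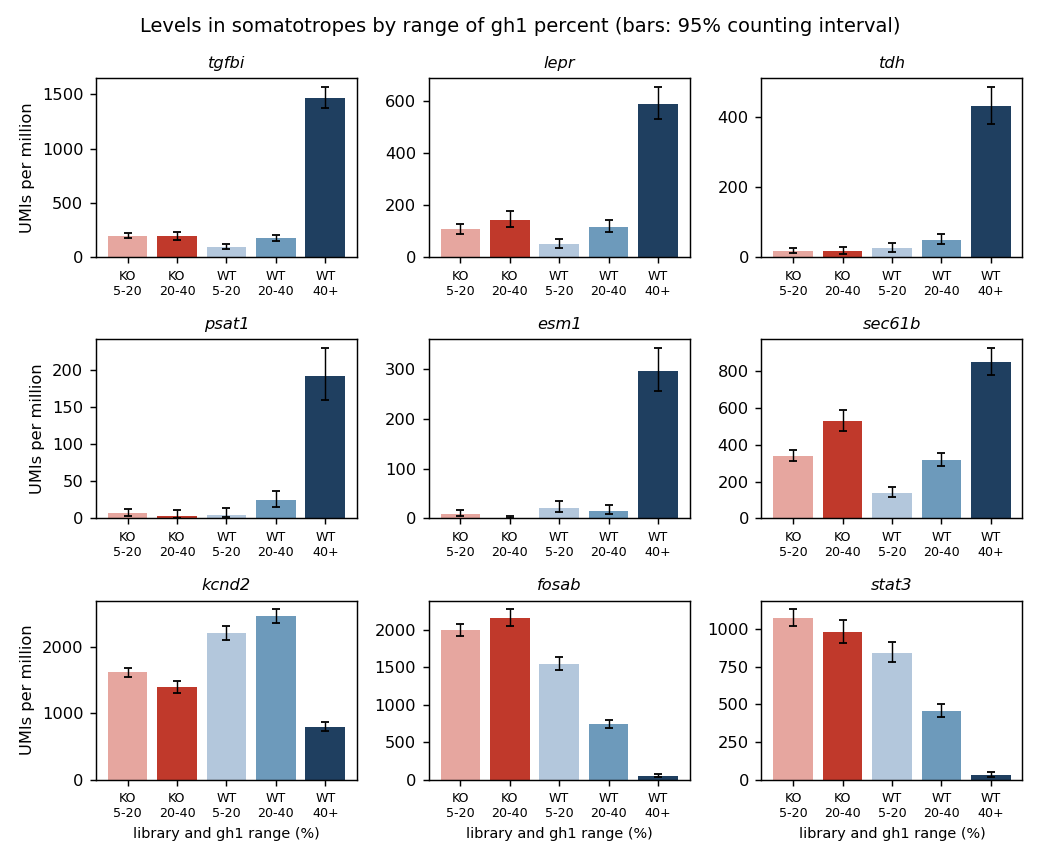
CPM of 9 genes (y axes) in KO and WT somatotropes split by the percent of gh1 (x axes), with bars for the summed level and error bars for the 95% counting interval. Tgfbi reaches 1469 in WT cells at 40% gh1 or more and is at most 199 in the other ranges drawn, and fosab and stat3 are lowest in that range.

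Below 40% the genotypes could be compared at a like share of gh1. In cells at 5% to under 20% gh1 (82 KO and 82 WT cells), tgfbi had 199 CPM in KO and 94.9 in WT, tdh had 17.7 in KO and 26.3 in WT, and psat1 had 6.91 in KO and 5.27 in WT. Kcnd2 had 1623 in KO and 2217 in WT in that range. In cells at 20% to under 40% gh1 (58 KO and 93 WT cells), tgfbi had 194 CPM in KO and 176 in WT, and lepr had 144 in KO and 117 in WT. Tdh had 17.3 in KO and 50.9 in WT, and psat1 had 3.15 in KO and 24.3 in WT. Kcnd2 had 1399 in KO and 2473 in WT. In the upper range psat1 had 2 UMIs in KO and 22 UMIs in 8 WT cells. Its lower KO level was seen there, where gh1 was lower in KO too, and the part of gh1 was not tested. In the lower range the counting intervals of psat1 overlapped. Fosab and stat3 were higher in KO in both, fosab with 1994 in KO and 1548 in WT at 5% to under 20%, and with 2157 in KO and 736 in WT at 20% to under 40%. Stat3 had 1074 in KO and 843 in WT in the lower range, and 981 in KO and 456 in WT in the upper one.

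Markers of other cell types were counted in somatotropes because droplets can carry their RNA. The blood and immune list of 30 genes summed to 5127 CPM in KO and 11189 in WT somatotropes, with 8 of its genes at 0 in KO and 4 in WT. In all other deep barcodes it summed to 125798 in KO and 222860 in WT. Of its 9 genes with enough UMIs, hbaa1, hbaa2, hbba1 (2 genes with this symbol), hbba2, cahz and cd74a were at least 2-fold lower in KO and 0 were higher. Over all genes 4.92% were lower and 8.01% higher. The endothelial and mural list summed to 71.5 in KO and 51.6 in WT somatotropes, and the mesenchymal list to 114 in KO and 56.4 in WT. The part of such RNA in the genotype differences was not tested.

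A few cells decided the values of some markers. Tshba, the beta subunit of thyroid-stimulating hormone, had 785 UMIs in KO and 70 UMIs in WT somatotropes. The 3 highest KO cells held 567, 106 and 99 of these UMIs, and the highest WT cell held 46. The same 3 KO cells held 140, 54 and 17 of the 239 KO UMIs of cga, the alpha subunit that thyroid-stimulating hormone shares. This cga (ENSDARG00000040479) is listed apart from the CGA named among the lowest genes above. Cyp26b1, which degrades retinoic acid and was listed as a pituicyte marker, had 44.3 CPM in KO and 303 in WT somatotropes. Cells with 5.20, 6.82 and 5.97% gh1 held 336, 168 and 135 of its 694 WT UMIs. With gh1 of at least 10% required, the log2 KO over WT ratio of cyp26b1 was 0.14 in place of -2.78.

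Few UMIs of ccka, cckbra, CCKAR and CCKBR were counted in somatotropes. Ccka had 14 UMIs in all KO barcodes and 144 UMIs in all WT barcodes, of which somatotropes held 1 UMI in KO and 0 in WT. RNA counts do not read the mutated sites, so these values do not check the genotype labels. Cckbra, a cholecystokinin receptor gene, had 2 UMIs in 2 KO somatotropes and 5 UMIs in 3 WT somatotropes. CCKAR and CCKBR had 0 UMIs in both, in 0 of 141 KO and 0 of 223 WT cells. In all barcodes cckbra had 249 UMIs in KO and 127 in WT, and CCKBR had 12 in KO and 36 in WT. CCKAR had 4 UMIs in all KO barcodes and 0 in all WT barcodes. Counts this low do not show that these receptors are absent from somatotropes. Setting 3 cells in place of 0 bounds the share at 2.13% of KO and 1.35% of WT somatotropes. This bound is not a Clopper-Pearson interval.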

How the data were processed

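Pituitary cells of cck1-/-;cck2-/- and WT zebrafish were captured with the 10X system, and the authors deposited raw UMI counts per gene and barcode, which the submitters' processing notes link to Cell Ranger, Seurat and GRCz11. Of 32057 genes, 28988 had a symbol in the reference table. No column lacked a sample. Counts were read with Python 3.11.15, scipy 1.17.1 and pandas 2.3.3, and doublet scores came from scanpy 1.11.5. Summed counts were divided by all UMIs without gh1, prl, pomca, lhb and fshb. Ratios carry exact conditional binomial intervals, levels exact Poisson intervals and shares Clopper-Pearson intervals. A gene entered a comparison with at least 100 UMIs. Ratios, intervals and the dispersion index were tested on simulated counts. For ratios and intervals these counts held counting error only, so they show nothing about spread between cells.

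The members, gene lists and comparisons were chosen with earlier results of these data known. Named genes were the markers, list members, the 12 highest and 12 lowest KO over WT ratios (at least 10 cells, no cell over 20% of the UMIs), the 15 highest and 10 lowest ratios over other hormone cells, the 8 widest gaps between these classes, the 10 highest dispersions and the 5 highest and 5 lowest correlations with gh1. Mitochondrial genes, taken as those with symbols starting mt-, and rule genes were not ranked. A gene listed only by its ID, such as ENSDARG00000080337, could not be marked as mitochondrial. Genes named for the cells at 40% gh1 or more were chosen after their values were seen. Some ion channel genes are not reported here.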

Additional observations from a re-analysis of the deposited data

Results flagged for a closer look

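The genes znf1096, RASSF5, cacna1ha and tshba had genotype ratios past 2-fold in opposite directions in somatotropes and in other hormone cells. The difference of the log2 KO over WT ratios, somatotropes minus other hormone cells, was -3.73 for znf1096, -3.43 for RASSF5, 2.97 for cacna1ha and 4.88 for tshba, and none of these differences was tested. With the 3 other classes weighted equally, the ratio in other hormone cells was 1.55 for znf1096, 0.89 for RASSF5 and -1.27 for cacna1ha. The value of tshba rests on 3 KO cells that held 567, 106 and 99 of 785 UMIs.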

How the results depend on the processing

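No paired analysis was possible because each genotype has 1 library. Requiring gh1 of at least 10% left 196 WT somatotropes, 10.9% of deep barcodes, and turned the log2 KO over WT ratio of cyp26b1 to 0.14; 3 WT cells near the gh1 limit held most of its UMIs. At least 5000 UMIs gave a KO share of 14.2% and 190 WT cells. The WT share then stayed within its interval of 10.9 to 14.0%, so the KO share was the higher. At least 1000 UMIs gave a KO share of 9.39%, 165 KO cells and 283 WT cells. Keeping gh1 under 40%, chosen after seeing the data, left 175 WT cells (9.70%) and 268 genes higher in KO. With levels taken over all UMIs, 789 genes were higher and 148 lower in KO, and 218 were higher than in other hormone cells. With at least 20 UMIs per gene there were 1221 higher and 1109 lower in KO, and 626 higher and 1204 lower than other hormone cells; with no minimum there were 3976, 3364, 1219 and 2172, with more genes entering each comparison. Of 199 values of named genes, 72 moved beyond their counting interval with levels over all UMIs, 74 with gh1 under 40%, 36 with gh1 of at least 10%, 39 as a mean over cells, 19 with centred ratios, 7 with at least 5000 UMIs and 2 with at most 10% mitochondrial UMIs. Leaving out the highest Scrublet scores or the shared barcodes removed 3 and 0 somatotropes, so these settings show nothing about stability.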
